A study of Homo sapiens with 12 samples.

Results

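The 10 genes described here regulate passage through the G1 phase of the cell cycle: the D-type cyclins CCND1, CCND2 and CCND3, the E-type cyclins CCNE1 and CCNE2, the cyclin-dependent kinase (CDK) inhibitors CDKN1B, CDKN1C and CDKN2B, the phosphatase CDC25A and the transcription factor E2F1. They form a list of names that uses no measured value as a criterion, drawn up with earlier results of these data known, and all 10 were found by Ensembl identifier among the 58051 genes counted. RNA had been sequenced from HCT116, an established human colon carcinoma line, in 12 libraries that form 6 groups of 2. Cells received a control siRNA (siControl), an siRNA against the prefoldin subunit gene PFDN2 (siPFDN2) or one against the prefoldin subunit gene PFDN5 (siPFDN5), each a single short duplex, and serum was withdrawn 24 h later for 48 h. Every group was therefore transfected and starved, and "before serum" means the end of starvation, whereas "after serum" means 90 min after serum was given back. The labels do not say whether the replicates of a group were separate cultures, so the tests measure only the spread between these libraries, which may be technical.

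A cell that has been starved of serum usually waits in G1 or in a resting state. Growth factors raise the D-type cyclins, which activate CDK4 and CDK6. The E-type cyclins then activate CDK2, and both kinases release E2F factors from the retinoblastoma protein, so that E2F can switch on the genes of DNA replication. CDKN1B (p27) and CDKN1C (p57) hold back cyclin-CDK complexes, CDKN2B (p15) binds CDK4 and CDK6, and CDC25A removes inhibitory phosphates from the CDKs. Much of this control acts on the proteins, by phosphorylation and degradation, and is not seen in RNA. In RNA from whole cultures a change in the share of cells in a phase and a change in RNA per cell cannot be told apart.

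The libraries held between 59784425 and 136504590 gene-body counts. One of them, siPFDN2 before serum replicate 2, stood apart: the Spearman correlation of its deviations with the GC content of the transcripts was 0.69, against -0.28 to 0.13 in the other 11, and the SD between the replicates of its group was 0.68 on the log2 scale, against 0.12 to 0.30 in the other groups. Since all groups share an estimate of the spread, many test results are given below with and without this library. Levels, transcript shares and correlations use all 12 libraries. PFDN2 before serum stood at 7.55 and 8.49 CPM (gene-body counts scaled to a common library total) in siPFDN2 and at 11.5 and 11.2 CPM in siControl. After serum it stood at 8.73 and 9.47 CPM in siPFDN2 and at 19.5 and 16.3 CPM in siControl. Before serum PFDN5 had 41.0 and 44.2 CPM under its siRNA, where siControl had 68.9 and 76.8 CPM. The 2 libraries labelled siPFDN5 that followed serum had 67.5 and 68.6 CPM, where siControl had 67.9 and 74.0 CPM. The targeted RNA thus does not separate these 2 groups. The libraries labelled siPFDN5 before and after serum hence differed in PFDN5 RNA as well as in serum. Their serum response, its interaction and their part in the average cannot tell these apart. All 6 epithelial markers (EPCAM, KRT8, KRT18, KRT19, CDH1, VIL1) exceeded 1 CPM in all 12 libraries. Of 8 markers of blood, vessel, fibroblast and muscle cells, PTPRC, CD3E, PECAM1, CDH5 and COL1A2 stayed under 1 CPM everywhere, while COL1A1, DES and MYH11 did not. The summed level of these 8 ran from 17.8 to 39.1 CPM, and that of the 6 epithelial markers from 1850 to 2880 CPM.

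To compare the genes with each other, exonic counts were divided by exon length (FPKM, which is CPM per kilobase of exon). CCND1, the cyclin most closely tied to growth factor signalling, had a median over the 12 libraries of 115.5 FPKM, with a range of 100 to 129.6 FPKM. CCNE2, E2F1, CDKN1B, CDC25A and CCNE1 had medians of 11.4, 11.2, 10.7, 10.1 and 9.75 FPKM in that order, with ranges that overlapped. The place of CCNE2 is uncertain, since its exonic counts of 1551 to 6496 per library exceeded its estimated transcript counts of 938.2 to 3243. For CCNE1 the 2 ranges were close, at 993 to 2877 and 1012 to 2942. The part of overlapping genes in the CCNE2 counts was not tested. CCND3 followed with a median of 3.73 FPKM, then CDKN1C with 2.14 FPKM and CDKN2B with 1.63 FPKM, whose ranges overlapped each other. CCND1 thus lay above every other gene of the group in every library.

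**Figure D1:**
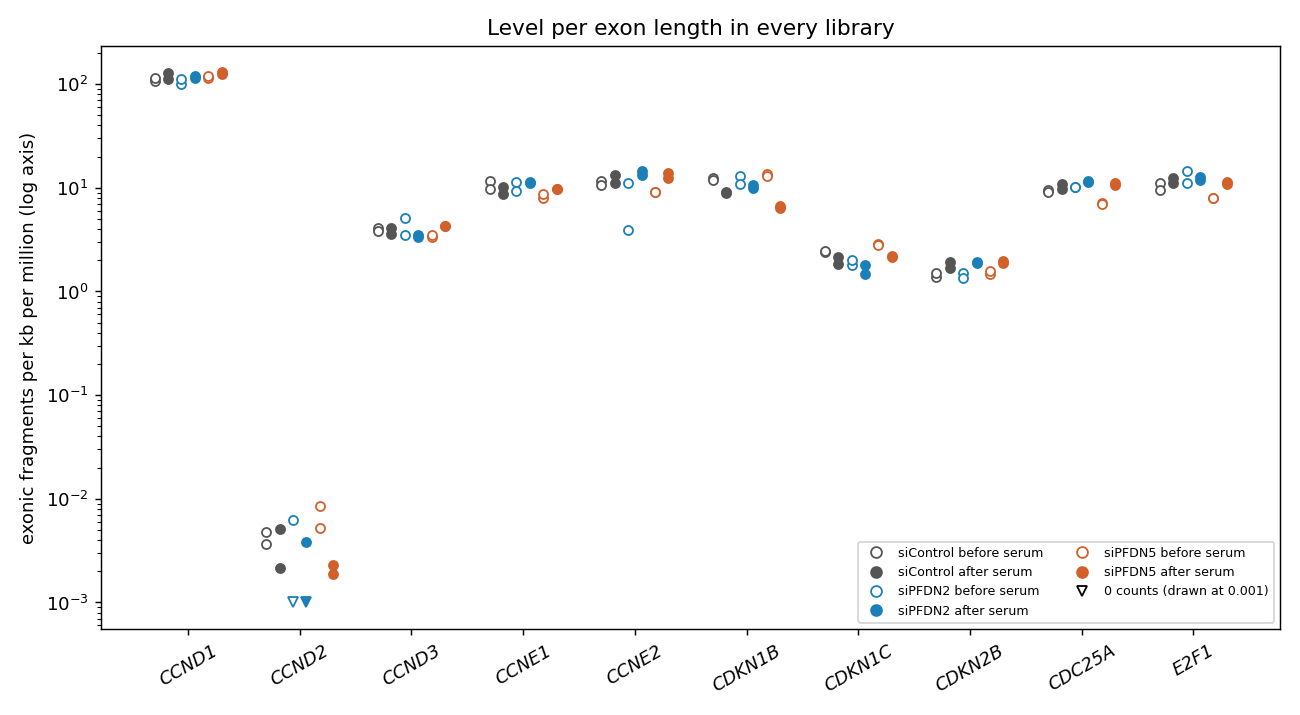
Level per exon length in FPKM (log axis) of the 10 genes in every library, where colour stands for the siRNA, open points for before serum and filled points for after serum; triangles are libraries with 0 counts, drawn at 0.001. CCND1 lies at 100 to 129.6, CCND2 lies at or below 0.00854, and the other 8 lie between these.

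CCND2, the D-type cyclin of many haematopoietic and neural cells, was at the limit of detection in all groups. It had 26 gene-body counts in all 12 libraries together. Before serum it had 2 and 4 counts in siControl, 0 and 4 in siPFDN2 and 3 and 3 in siPFDN5, and after serum 1 and 5, 0 and 2, and 1 and 1. A library with 0 counts allows up to 3, or 0.0497 CPM in the shallower of these 2. This limit and the other intervals of counts cover counting error only. CCND2 failed the filter on low counts, so 9 of the 10 genes were tested among 27915 genes in all, and no difference between the groups was detectable for it at this depth.

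Estimated transcript counts showed which forms these levels stand for. A single transcript held most of CCND1 (CCND1-201, 86.2% to 99.6% of the gene's estimated counts), of CDKN1B (CDKN1B-201, 96.3% to 100%) and of CDC25A (CDC25A-201, 83.1% to 90.5%). CCNE1 was divided among CCNE1-201, CCNE1-203 and CCNE1-202, with median shares of 41.6%, 31.3% and 21.5%. CCNE2 was divided between CCNE2-202 and CCNE2-201, with medians of 46.0% and 44.9%. CCND3-203 held a median of 67.2% of CCND3 and CDKN2B-201 one of 88.8% of CDKN2B. The share of CDKN1C-201 ranged from 18.7% to 91.9% of CDKN1C, a gene with as few as 154.9 estimated counts in a library.

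CDKN1B, the inhibitor known to accumulate in resting cells, was lower after serum in all 3 siRNA groups. Its gene-body abundance before serum was 30.1 and 28.4 CPM in siControl, 31.9 and 25.8 CPM in siPFDN2 and 31.5 and 31.1 CPM in siPFDN5. After serum it was 20.5 and 21.45 CPM in siControl, 23.9 and 25.7 CPM in siPFDN2 and 17.1 and 15.9 CPM in siPFDN5. Under siPFDN5 the libraries before and after serum did not overlap, a pattern that 75.7% of all genes showed. In siPFDN2 the nearest libraries stood at 25.78 CPM before and 25.73 CPM after serum. The lowest pair was siPFDN5 after serum. Averaged over the siRNAs CDKN1B fell by 0.54 on the log2 scale (SE 0.08, edgeR quasi-likelihood test, adjusted p = 0.00176), to 0.688 times its level. Under siPFDN5 it fell by 0.92 (SE 0.15, adjusted p = 0.00559). The differences of -0.48 in siControl (SE 0.15, adjusted p = 0.137) and -0.22 in siPFDN2 (SE 0.15, adjusted p = 0.339) did not pass the threshold of 0.05. Without siPFDN2 before serum replicate 2 the siControl difference was unchanged at -0.48 and passed (adjusted p = 0.00162), whereas without any 1 of the 4 siPFDN5 libraries the siPFDN5 difference was -0.94 to -0.86 with an adjusted p of 0.0542 to 0.0917. A small intronic RNA, AC008115.3, lies within CDKN1B on its strand and held 24 to 74 exonic counts per library, where CDKN1B held at least 1216 gene-body counts.

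CDKN1C and CDKN2B, the other 2 inhibitors, differed in direction. CDKN1C had 5.03 and 5.16 CPM in siControl, 3.80 and 4.16 CPM in siPFDN2 and 5.80 and 5.78 CPM in siPFDN5 before serum. After serum it had 3.72 and 4.55 CPM in siControl, 3.13 and 3.80 CPM in siPFDN2 and 4.77 and 4.94 CPM in siPFDN5. Its averaged serum difference of -0.25 (SE 0.10) had an unadjusted p of 0.0277 and an adjusted p of 0.107, and its differences within siControl, siPFDN2 and siPFDN5 were -0.30, -0.20 and -0.25 with adjusted p of 0.545, 0.459 and 0.341. Scaled by library size only, the averaged difference was -0.39 and passed (adjusted p = 0.03), and with the GC trend removed it was -0.06. CDKN1C had a transcript GC content of 63.8%, above that of the other 9 genes.

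CDKN2B, a target of TGF-beta signalling in epithelial cells, was higher after serum. It stood at 5.05 and 5.27 CPM in siControl, 5.43 and 4.55 CPM in siPFDN2 and 5.34 and 5.80 CPM in siPFDN5 before serum. After serum it stood at 5.90 and 7.03 CPM in siControl, 7.04 and 7.01 CPM in siPFDN2 and 7.88 and 7.59 CPM in siPFDN5. Under siPFDN5 the 2 groups did not overlap, as in 75.7% of all genes. On average it rose by 0.43 on the log2 scale (SE 0.09, adjusted p = 0.0119), to 1.35 times its level. Within siControl, siPFDN2 and siPFDN5 the differences were 0.33, 0.49 and 0.47 (each SE 0.16), with adjusted p of 0.459, 0.102 and 0.0785. The averaged call was lost without siPFDN5 before serum replicate 1 (0.41, adjusted p = 0.0576), without siPFDN5 after serum replicate 1 (0.43, adjusted p = 0.0512) and with scaling by library size only (0.29, adjusted p = 0.0519). CDKN2B shares its locus on chromosome 9 with CDKN2B-AS1 and AL359922.1 on the other strand, and the counts were made without strand, so reads in its introns cannot be assigned with certainty.

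CCND1 was abundant under every condition and its serum difference did not pass the test. Before serum it had 433 and 460.4 CPM in siControl, 406 and 445 CPM in siPFDN2 and 444 and 468 CPM in siPFDN5. After serum it had 429.6 and 523 CPM in siControl, 485 and 465 CPM in siPFDN2 and 531 and 544 CPM in siPFDN5. The siPFDN5 libraries after serum held the highest levels, above both siControl libraries of that time in gene-body CPM. The share of all genes whose libraries did not overlap in this comparison is not given here. Among the 9 tested genes 6 did not overlap, in either direction. Per exon length the CCND1 levels of the 2 groups overlapped, with 126.2 and 129.6 FPKM in siPFDN5 and 112.6 and 129.1 FPKM in siControl. The averaged difference was 0.16 (95% interval -0.01 to 0.34, adjusted p = 0.18), and those of siControl, siPFDN2 and siPFDN5 were 0.09, 0.16 and 0.24 with adjusted p of 0.898, 0.458 and 0.268. Without siPFDN2 before serum replicate 2 the averaged difference was 0.19 with an adjusted p of 0.0351, and with scaling by library size only it was 0.02 (adjusted p = 0.883). LTO1 overlaps CCND1 on the other strand.

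CCND3 had serum differences of opposite sign in siPFDN2 and in the libraries labelled siPFDN5, neither of them past the threshold. It stood at 20.7 and 19.8 CPM in siControl, 17.95 and 26.0 CPM in siPFDN2 and 17.9 and 18.7 CPM in siPFDN5 before serum, the value of 26.0 CPM being that of the library that stood apart. After serum it stood at 18.4 and 20.9 CPM in siControl, 17.3 and 17.6 CPM in siPFDN2 and 22.4 and 22.5 CPM in siPFDN5. The serum differences were -0.04 in siControl, -0.33 in siPFDN2, 0.29 in siPFDN5 and -0.03 on average, with adjusted p of 0.977, 0.232, 0.282 and 0.874. Without the library that stood apart the siPFDN2 difference was -0.04, and the siPFDN5 difference was 0.30 with an adjusted p of 0.0185.

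CCNE1 and CCNE2 activate CDK2 late in G1. CCNE1 had 25.7 and 21.1 CPM in siControl, 25.3 and 20.2 CPM in siPFDN2 and 16.5 and 18.3 CPM in siPFDN5 before serum. After serum it had 18.0 and 22.65 CPM in siControl, 24.5 and 24.9 CPM in siPFDN2 and 21.9 and 22.0 CPM in siPFDN5. Before serum both siPFDN5 libraries lay below all 4 others, where in 63.4% of all genes they lay wholly above or below siControl. After serum the siPFDN5 libraries lay within the range of siControl. The serum differences of -0.20 in siControl, 0.12 in siPFDN2, 0.33 in siPFDN5 and 0.08 on average had adjusted p of 0.763, 0.67, 0.219 and 0.587.

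CCNE2 had 42.8 and 39.3 CPM in siControl, 42.1 and 15.1 CPM in siPFDN2 and 32.45 and 33.2 CPM in siPFDN5 before serum. After serum it had 41.0 and 50.8 CPM in siControl, 54.3 and 50.5 CPM in siPFDN2 and 54.9 and 48.3 CPM in siPFDN5. The 15.1 CPM of siPFDN2 before serum replicate 2 lay far below the other library of its group, and CCNE2 had the lowest transcript GC content of the 10 genes, 36.9%. The serum differences were 0.16, 0.88 and 0.65 in siControl, siPFDN2 and siPFDN5 (SE 0.34 in each, adjusted p = 0.939, 0.14 and 0.221) and 0.56 on average (SE 0.20, adjusted p = 0.0771). Without that library the siPFDN2 difference was 0.32 (adjusted p = 0.247), the siPFDN5 difference 0.66 (SE 0.11, adjusted p = 0.000447) and the average 0.38 (SE 0.07, adjusted p = 0.000764). When siPFDN2 before serum replicate 1 was left out instead the average was 0.87 (adjusted p = 2.68e-07). With all libraries the average also passed with DESeq2 (0.57, adjusted p = 0.0238), with no filter on low counts (0.56, adjusted p = 3.02e-05) and with the GC trend removed (0.49, adjusted p = 0.0111). CCNE2 overlaps INTS8 and NDUFAF6, which are expressed from the other strand. The counts were made without strand, so its gene-body and exonic counts can include reads of these genes.

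CDC25A and E2F1 are both known targets of E2F factors, and a motif of the kind that E2F binds was found upstream of both. Among the 10 genes, 6 had a promoter in the RefSeq table used (GRCh38.p14), and the 250 bases before the start were searched on both strands for TTTCGCGC, TTTGGCGC, TTTCCCGC and TTTGGGCGC. CDC25A and E2F1 each held 1 match and the other 4 (CCND3, CCNE1, CDKN1B and CDKN2B) held none, against 2.46% of 35116 promoters of the same length. The 2 sequences are shown because these genes were correlated over the libraries, as given below, and the capitals mark the match. CDC25A is at chr3:48188418-48188667 on the minus strand and E2F1 at chr20:33686386-33686635 on the minus strand, both written 5′ to 3′ in the direction of transcription.
CDC25A: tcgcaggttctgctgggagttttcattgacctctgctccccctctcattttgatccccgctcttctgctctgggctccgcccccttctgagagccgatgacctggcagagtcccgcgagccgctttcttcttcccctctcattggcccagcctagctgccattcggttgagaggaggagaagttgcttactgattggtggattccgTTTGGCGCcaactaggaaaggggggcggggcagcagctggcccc
E2F1: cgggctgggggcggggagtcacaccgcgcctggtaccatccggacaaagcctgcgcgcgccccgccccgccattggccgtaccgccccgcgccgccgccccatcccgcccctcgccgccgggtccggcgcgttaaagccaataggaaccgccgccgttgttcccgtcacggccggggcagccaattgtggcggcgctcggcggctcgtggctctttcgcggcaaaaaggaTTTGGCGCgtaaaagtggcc
The match was TTTGGCGC in both and began 44 bases before the start of CDC25A and 20 bases before that of E2F1. It is a description of these letters and not evidence that E2F bound there. Only the listed forms were searched, so other forms of the site would not be counted or marked.

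CDC25A was lowest in the starved siPFDN5 libraries. Before serum it had 35.2 and 33.0 CPM in siControl, 37.2 and 36.9 CPM in siPFDN2 and 25.0 and 24.4 CPM in siPFDN5. After serum it had 34.6 and 39.0 CPM in siControl, 41.6 and 41.1 CPM in siPFDN2 and 41.1 and 39.4 CPM in siPFDN5. The siPFDN5 pair before serum lay below all 10 other libraries. The share of all genes with this pattern was not counted, but in 63.4% that pair lay wholly above or below siControl before serum. The siPFDN5 pair after serum lay above both siControl libraries of that time in gene-body CPM. In this comparison 6 of the 9 tested genes did not overlap, in either direction, and the share of all genes is not given here. Per exon length these 2 groups overlapped for CDC25A after serum, with 11 and 10.7 FPKM in siPFDN5 and 9.81 and 10.8 FPKM in siControl. With serum CDC25A rose by 0.70 on the log2 scale under siPFDN5 (SE 0.13, adjusted p = 0.0112), to 1.63 times its level. The siPFDN5 libraries before and after serum also differed in PFDN5 RNA, as given above. On average CDC25A rose by 0.32 (SE 0.08, adjusted p = 0.0163). In siControl and siPFDN2 the differences were 0.11 and 0.16 (SE 0.13 in both, adjusted p = 0.857 and 0.426). Without any 1 of the 4 siPFDN5 libraries the siPFDN5 difference was 0.70 to 0.74 with an adjusted p of 0.089 to 0.127. The averaged call was lost with scaling by library size only (0.18, adjusted p = 0.137), and without any 1 of the 4 siPFDN5 libraries, the 2 of siPFDN2 after serum or the 2 of siControl before serum the average was 0.31 to 0.34 with an adjusted p of 0.0513 to 0.0739.

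E2F1 had the same order under siPFDN5. Before serum it had 26.6 and 22.3 CPM in siControl, 25.75 and 33.7 CPM in siPFDN2 and 17.1 and 17.3 CPM in siPFDN5. After serum it had 24.5 and 28.5 CPM in siControl, 27.5 and 28.1 CPM in siPFDN2 and 25.8 and 24.4 CPM in siPFDN5. The siPFDN5 pair before serum again lay below all 10 other libraries, where in 63.4% of all genes it lay wholly above or below siControl before serum. The serum difference under siPFDN5 was 0.55 (SE 0.17, adjusted p = 0.0553), and those of siControl, siPFDN2 and the average were 0.12, -0.10 and 0.19 with adjusted p of 0.891, 0.723 and 0.194. Without siPFDN2 before serum replicate 2, where E2F1 was highest and whose deviations went with GC content (62.5% for E2F1), the siPFDN5 difference was 0.55 with an adjusted p of 0.00125 and the average 0.26 with an adjusted p of 0.00805.

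**Figure D2:**
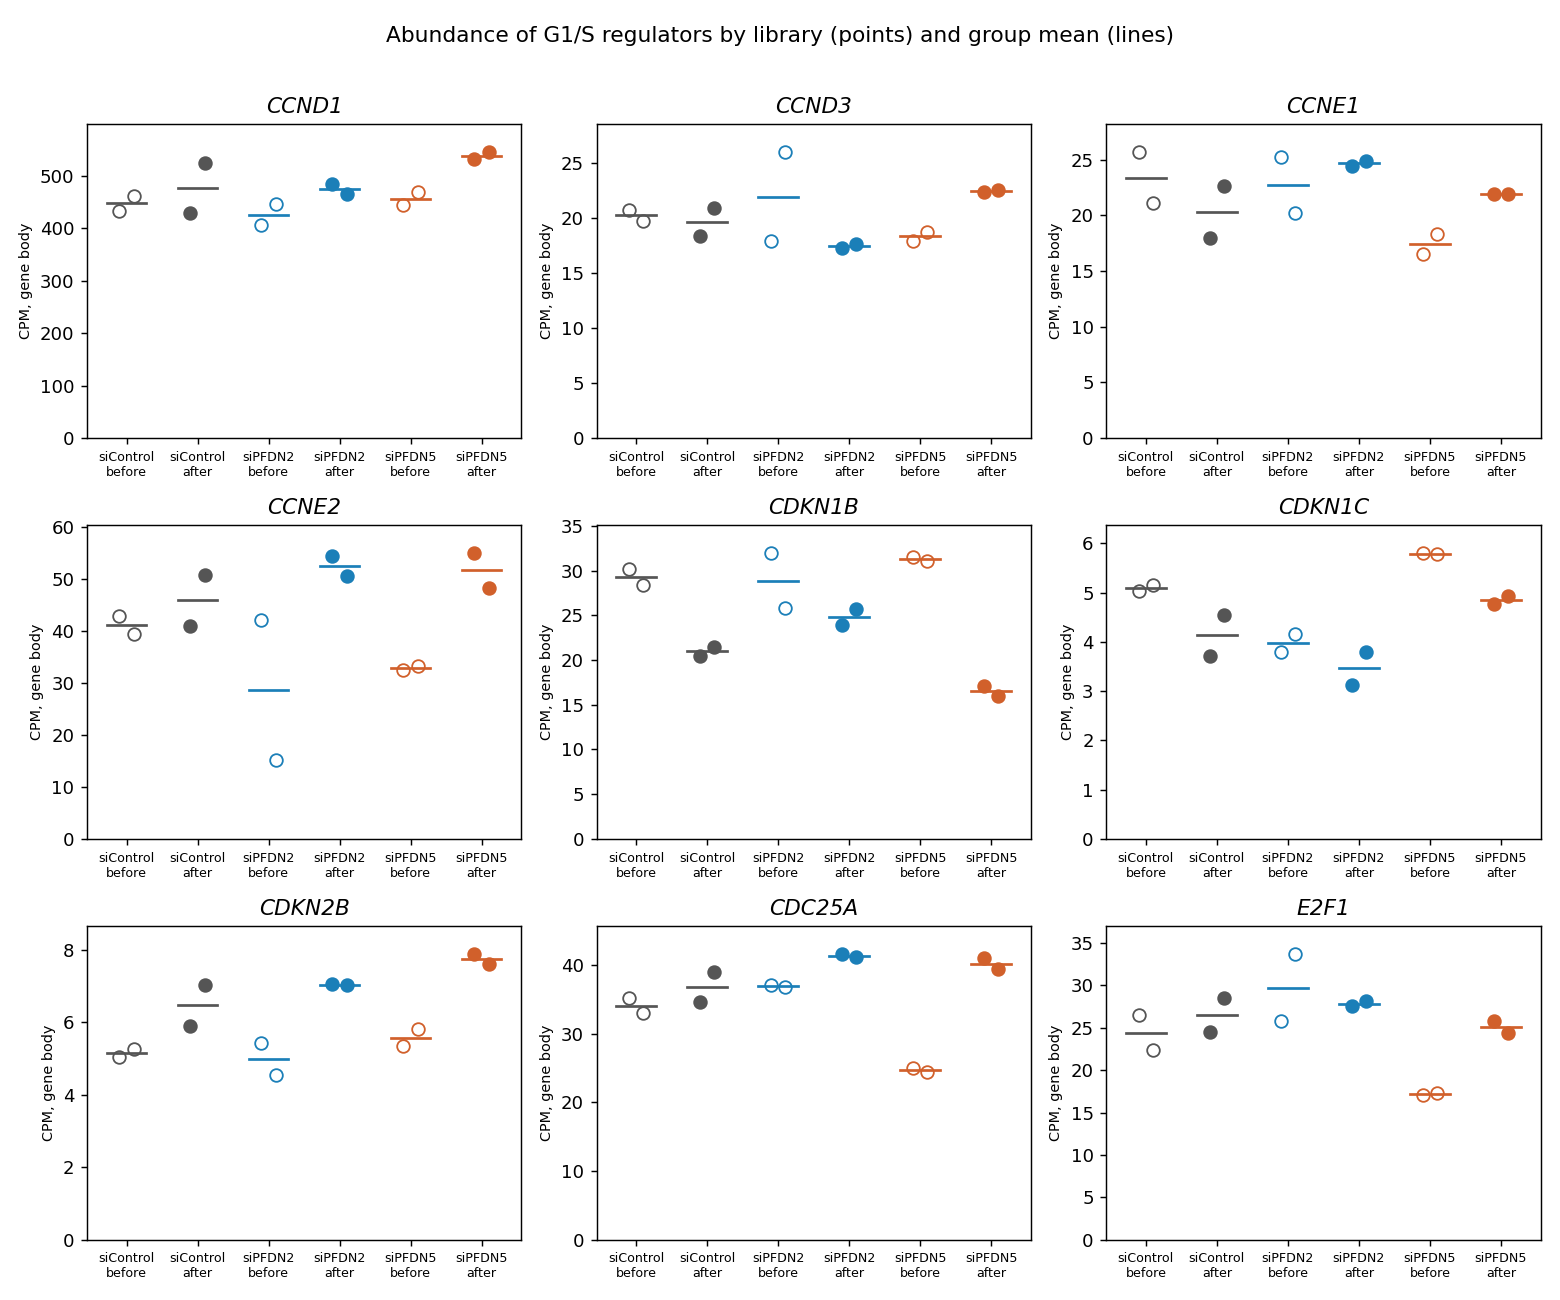
Gene-body abundance in CPM of the 9 tested genes in each library (points; open before serum, filled after serum) with the mean of each group of 2 (lines), on axes that start at 0. CDKN1B is lower after serum under each siRNA, and CDC25A and E2F1 have their lowest values in the siPFDN5 libraries before serum.

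Counted over the 9 tested genes, the serum response gave few calls. In siControl 0 of 9 passed an adjusted p of 0.05, where 2.87% of all tested genes did, and 1 (CDKN1B) had an unadjusted p under 0.05, as 12.4% of all genes did. DESeq2 called that gene, and 4.31% of all genes. Under siPFDN2 0 of 9 passed, against 3.26%, with 2 (CCNE2 and CDKN2B) at an unadjusted p under 0.05, as 28% of all genes were, and 1 (CDKN2B) called by DESeq2, which called 11.2% of all genes. Under siPFDN5 2 of 9 passed (CDC25A higher and CDKN1B lower), against 12.2%. On average over the siRNAs 3 of 9 passed (CDKN2B and CDC25A higher, CDKN1B lower), against 14.9%. The median serum difference of the 9 was 0.09 in siControl, 0.12 in siPFDN2, 0.33 in siPFDN5 and 0.16 on average, where that of all genes lay between -0.03 and 0.01. Under siPFDN5 the libraries before and after serum did not overlap for any of the 9 genes, a pattern that 75.7% of all genes showed.

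Leaving out the library that stood apart raised these counts in 3 of the 4 serum responses, together with the share of all genes called. In the fit without siPFDN2 before serum replicate 2, 7 of 9 passed under siPFDN5, 6 of them higher (CCND3, CCNE1, CCNE2, CDKN2B, CDC25A and E2F1) and CDKN1B lower, where 36.3% of all genes passed. On average 6 passed, with CCND1, CCNE2, CDKN2B, CDC25A and E2F1 higher and CDKN1B lower, where 27.5% of all genes passed. In siControl 1 passed (CDKN1B), where 9.95% did, and under siPFDN2 0 did, where 4% did. The same 7 passed under siPFDN5 when replicate 1 of that group was left out instead, where 36% of all genes passed.

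**Figure D3:**
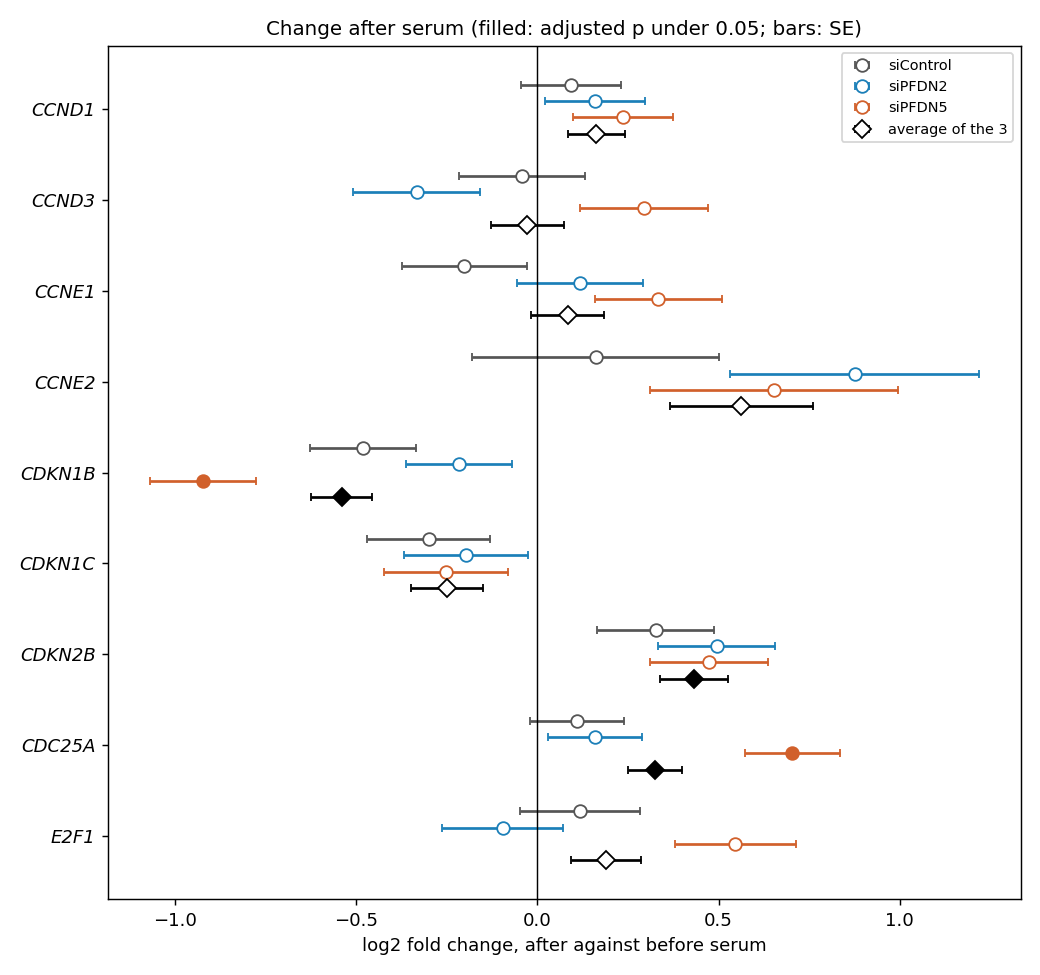
Log2 fold change after against before serum of the 9 tested genes for each siRNA (circles) and the average of the 3 (diamonds), with bars of 1 SE and filled symbols where the adjusted p was under 0.05. CDKN1B lies left of 0 throughout, at -0.92 under siPFDN5, and CDC25A lies at 0.70 under siPFDN5 and at 0.11 and 0.16 under the others.

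Against siControl, neither siPFDN2 nor the libraries labelled siPFDN5 gave a call among these genes at either time. Before serum siPFDN2 called 0 of 9, where 0% of all genes passed, and 0 had an unadjusted p under 0.05, where 11.3% of all genes did; DESeq2 called 0 as well. Before serum siPFDN5 also called 0 of 9 (0 by DESeq2), where 0.00716% of all genes passed, and 3 had an unadjusted p under 0.05, where 12.3% did. Its largest differences were those of E2F1 at -0.51 (SE 0.17, unadjusted p of 0.0111, adjusted p = 0.278), CDC25A at -0.46 (SE 0.13, unadjusted p of 0.00439, adjusted p = 0.234) and CCNE1 at -0.43 (SE 0.17, unadjusted p of 0.032, adjusted p = 0.359). In all 3 genes both siPFDN5 libraries lay below both siControl libraries, as in 63.4% of all genes one group lay wholly above or below the other. These 3 genes passed without siPFDN2 before serum replicate 2, with differences of -0.51, -0.47 and -0.43 (adjusted p = 0.0137, 0.00935 and 0.047), where 6.96% of all genes passed. The libraries of siPFDN5 before serum also had the highest shares of intronic counts, 22.8% and 25.9% against 14.8% to 20.9% in the other 10, and the part of this in the differences was not tested. Per exon length siPFDN5 had means of 7.99, 7.01 and 8.28 FPKM for E2F1, CDC25A and CCNE1. The means of siControl were 10.38, 9.26 and 10.73 FPKM. Fitted on exon counts, E2F1 differed by -0.38 (adjusted p = 0.522).

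After serum, siPFDN2 called 0 of 9 (0% of all genes), with 0 of the 9 at an unadjusted p under 0.05 (6.26% of all genes) and 0 called by DESeq2. The libraries labelled siPFDN5 called 0 of 9 (0.00358% of all genes), with 1 at an unadjusted p under 0.05 (21.6% of all genes) and 0 called by DESeq2. CDKN1B was lower in the latter, with a difference of -0.35 (SE 0.15, unadjusted p of 0.0375, adjusted p = 0.203). When siPFDN2 before serum replicate 2 was left out it was -0.34 and passed (adjusted p = 0.0108), where 23.9% of all genes did.

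**Figure D4:**
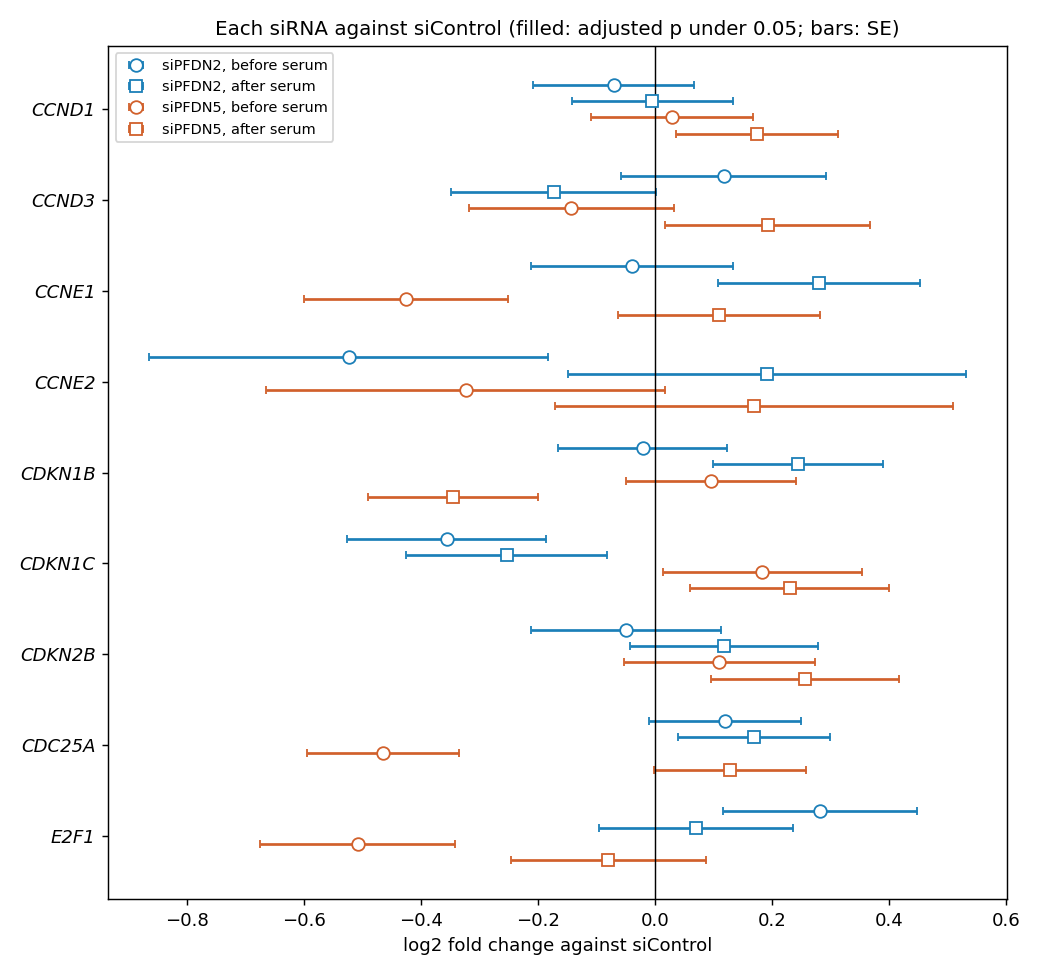
Log2 fold change of each siRNA against siControl before (circles) and after serum (squares) for the 9 tested genes, with bars of 1 SE; a filled symbol would mark an adjusted p under 0.05 and none is filled. CCNE1, CDC25A and E2F1 lie at -0.43, -0.46 and -0.51 under siPFDN5 before serum and between -0.08 and 0.13 after serum.

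Set directly against each other, siPFDN5 and siPFDN2 gave 0 of 9 calls before serum (0.0788% of all genes) and 0 of 9 after serum (0.0179%). Before serum E2F1 differed by -0.79 (SE 0.17, adjusted p = 0.0569), CDC25A by -0.58 (SE 0.13, adjusted p = 0.0585), CDKN1C by 0.54 (SE 0.17, adjusted p = 0.0832) and CCNE1 by -0.39 (SE 0.17, adjusted p = 0.168), these 4 having an unadjusted p under 0.05, as 29% of all genes did. DESeq2 called CDKN1C, CDC25A and E2F1, and 13.9% of all genes. With the GC trend removed E2F1 differed by -0.34 (adjusted p = 0.136). The siPFDN2 group at this time holds the library that stood apart. Without it E2F1 differed by -0.59 (adjusted p = 0.025) and CDC25A by -0.60 (adjusted p = 0.0124), where 3.16% of all genes passed. After serum CDKN1B differed by -0.59 (SE 0.15, adjusted p = 0.348) and CDKN1C by 0.48 (SE 0.17, adjusted p = 0.528), these 2 having an unadjusted p under 0.05, as 7.92% of all genes did. DESeq2 called CDKN1B, and 0.416% of all genes. With that library left out CDKN1B passed (adjusted p = 0.00273), as did CCND3 at 0.37 (adjusted p = 0.0355), where 4.22% of all genes passed.

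The difference of the serum response from that of siControl was tested as an interaction. For siPFDN5 it cannot separate serum from the difference in PFDN5 RNA between the libraries before and after serum. For siPFDN2 0 of 9 passed (0% of all genes), with 0 of the 9 at an unadjusted p under 0.05 (6.6% of all genes) and 0 called by DESeq2. For siPFDN5 0 of 9 passed (0%), with 1 at an unadjusted p under 0.05 (20.9% of all genes). This was CDC25A, which had a difference of 0.59 (SE 0.18, unadjusted p of 0.00798, adjusted p = 0.112). DESeq2 called it, and 6.32% of all genes. The siPFDN5 interaction without siPFDN2 before serum replicate 2 passed for 5 of 9: CDC25A (0.60, adjusted p = 0.00803), CCNE1 (0.54, adjusted p = 0.0364), CCNE2 (0.50, adjusted p = 0.0302), E2F1 (0.44, adjusted p = 0.0445) and CDKN1B (-0.43, adjusted p = 0.0227). In that fit 21.8% of all genes passed. Neither fit gave a call for siPFDN2 minus siControl.

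Beyond these genes, 30 others of the G1/S pathway were counted (the CDKs, pocket proteins, other E2Fs, inhibitors and ubiquitin ligase subunits). With serum on average 4 were called higher and 1 lower, a share near the 14.9% of all genes called. These were CDK7 at 0.90, E2F8 at 0.50, CCNH at 0.49, E2F6 at 0.40 and FBXO31 at -0.42 on the log2 scale. CDK7 and CCNH form the CDK-activating kinase, E2F8 and E2F6 are repressive members of the E2F family, and FBXO31 is a ubiquitin ligase subunit reported to act on cyclin D1. The median over the 30 was 0.10, beside -0.03 over all genes. In siControl 0 of 30 were called (2.87% of all genes), with 3 at an unadjusted p under 0.05 (12.4% of all genes). Under siPFDN2 1 was called higher (CDK7 at 1.19) and 1 lower (FBXO31 at -0.80), where 3.26% of all genes were called. Under siPFDN5 4 were called higher (CDK7 at 0.83, E2F8 at 0.66, CDK4 at 0.58 and CDKN1A at 0.57), where 12.2% of all genes were called. Without the library that stood apart the average gave 9 higher and 4 lower, where 27.5% of all genes were called.

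A list of 20 E2F target genes of DNA replication was counted in the same way. Before serum their median difference of siPFDN5 from siControl was -0.28 (0.01 over all genes), with 2 of 20 positive. Of the 20, 0 were called (0.00716% of all genes), and 9 had an unadjusted p under 0.05, where 12.3% of all genes did. For siPFDN2 at that time the median was 0.135 (-0.006 over all genes), with 13 of 20 positive and 0 called (0% of all genes). With serum their median difference under siPFDN5 was 0.33 (-0.03 over all genes), with 20 of 20 positive, and 3 were called higher, a share near the 12.2% of all genes called. These were CDC6 at 0.79, MCM7 at 0.59 and RRM2 at 0.55, a loading factor and a subunit of the replicative helicase and a subunit of ribonucleotide reductase. In siControl the median was 0.11 and 0 were called (2.87% of all genes), with 0 at an unadjusted p under 0.05 (12.4% of all genes). Under siPFDN2 it was -0.07 with 0 called (3.26% of all genes). There 6 had an unadjusted p under 0.05, a share near the 28% of all genes. Both siPFDN5 comparisons share the libraries taken before serum, so they are not independent of each other. Without the library that stood apart, their median in siPFDN5 against siControl before serum was -0.28 (0.02 over all genes), with 2 of 20 positive. Under siPFDN5 with serum it was 0.34 (-0.03 over all genes), with 20 of 20 positive.

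Among 15 transcription factors that act on G1 regulators, 9 were called higher with serum on average and 0 lower, where 14.9% of all genes were called. JUN rose by 2.70, FOSL1 by 2.32, KLF4 by 2.15 and EGR1 by 1.57 on the log2 scale, all of them early response genes. JUN, FOSL1 and KLF4 were called higher under each siRNA. EGR1 rose by 2.37 in siControl and 2.06 in siPFDN2. Under siPFDN5 it was not called, with means of 52.3 CPM before and 63.6 CPM after serum. In siControl 6 of 15 were called higher and 0 lower, with a median of 0.79 (0.01 over all genes), where 2.87% of all genes were called. Under siPFDN2 6 were called higher with a median of 0.40 (3.26% of all genes called), and under siPFDN5 5 higher with a median of 0.26 (12.2% of all genes called). The averaged differences of the 9 regulators themselves lay between -0.54 (CDKN1B) and 0.56 (CCNE2).

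Counts outside exons hold reads from unspliced RNA, and their serum response was set against that of the exons. Of 17390 genes that could be tested, 21.7% were called, and of the 8 regulators that could (CDKN1C had no intronic counts, and CCND2 had 1 in each of 3 libraries) 2 were. On average the introns of CCND3 moved by -0.41 relative to its exons (SE 0.14, adjusted p = 0.0493) and those of CDKN2B by 0.69 (SE 0.22, adjusted p = 0.0351). In CCND3 the introns and exons had serum differences of -0.93 and 0.34 under siPFDN5. They were -0.43 and -0.33 under siPFDN2, and 0.02 and -0.04 in siControl. CCND3 held 55 to 236 intronic counts per library, and its intronic share was 15.9% and 13.6% in siPFDN5 before serum and 3.45% and 4.36% in siPFDN5 after serum. CDKN2B held 20 to 89, and AL359922.1 and CDKN2B-AS1 run through the same interval. Without 1 library the CCND3 value was -0.50 to -0.33 and the CDKN2B value 0.50 to 0.93, and each call was lost without 9 of the 12 libraries. That of CCND3 held without siPFDN2 before serum replicate 1, siControl after serum replicate 1 or siPFDN2 after serum replicate 1, and that of CDKN2B without siControl before serum replicate 1, siPFDN2 before serum replicate 1 or siControl after serum replicate 1. The introns of CCNE2 rose by 0.85 on average (SE 0.13, adjusted p = 0.000154) where its exons had 0.52 (SE 0.20, adjusted p = 0.121), though the difference between the 2 did not pass (0.29, adjusted p = 0.187). CCNE2 held 81 to 342 intronic counts per library. INTS8, NDUFAF6 and AC087752.4 overlap it on the other strand, so these reads cannot be assigned with certainty. The introns of CDKN1B fell by 0.53 (SE 0.18, adjusted p = 0.0341), beside a fall of 0.56 in its exons (SE 0.08, adjusted p = 0.00101). Its intronic counts, 56 to 204 per library, can include reads of AC008115.3, which held 24 to 74. CDC25A rose by 0.32 in exons (SE 0.07, adjusted p = 0.0153), and its introns were at 0.06 (SE 0.12, adjusted p = 0.751). The difference between its introns and exons did not pass (-0.24, adjusted p = 0.16). Under siPFDN5 its introns were at 0.56 and its exons at 0.63. In siControl they were at -0.24 and 0.16, and in siPFDN2 at -0.14 and 0.18.

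**Figure D5:**
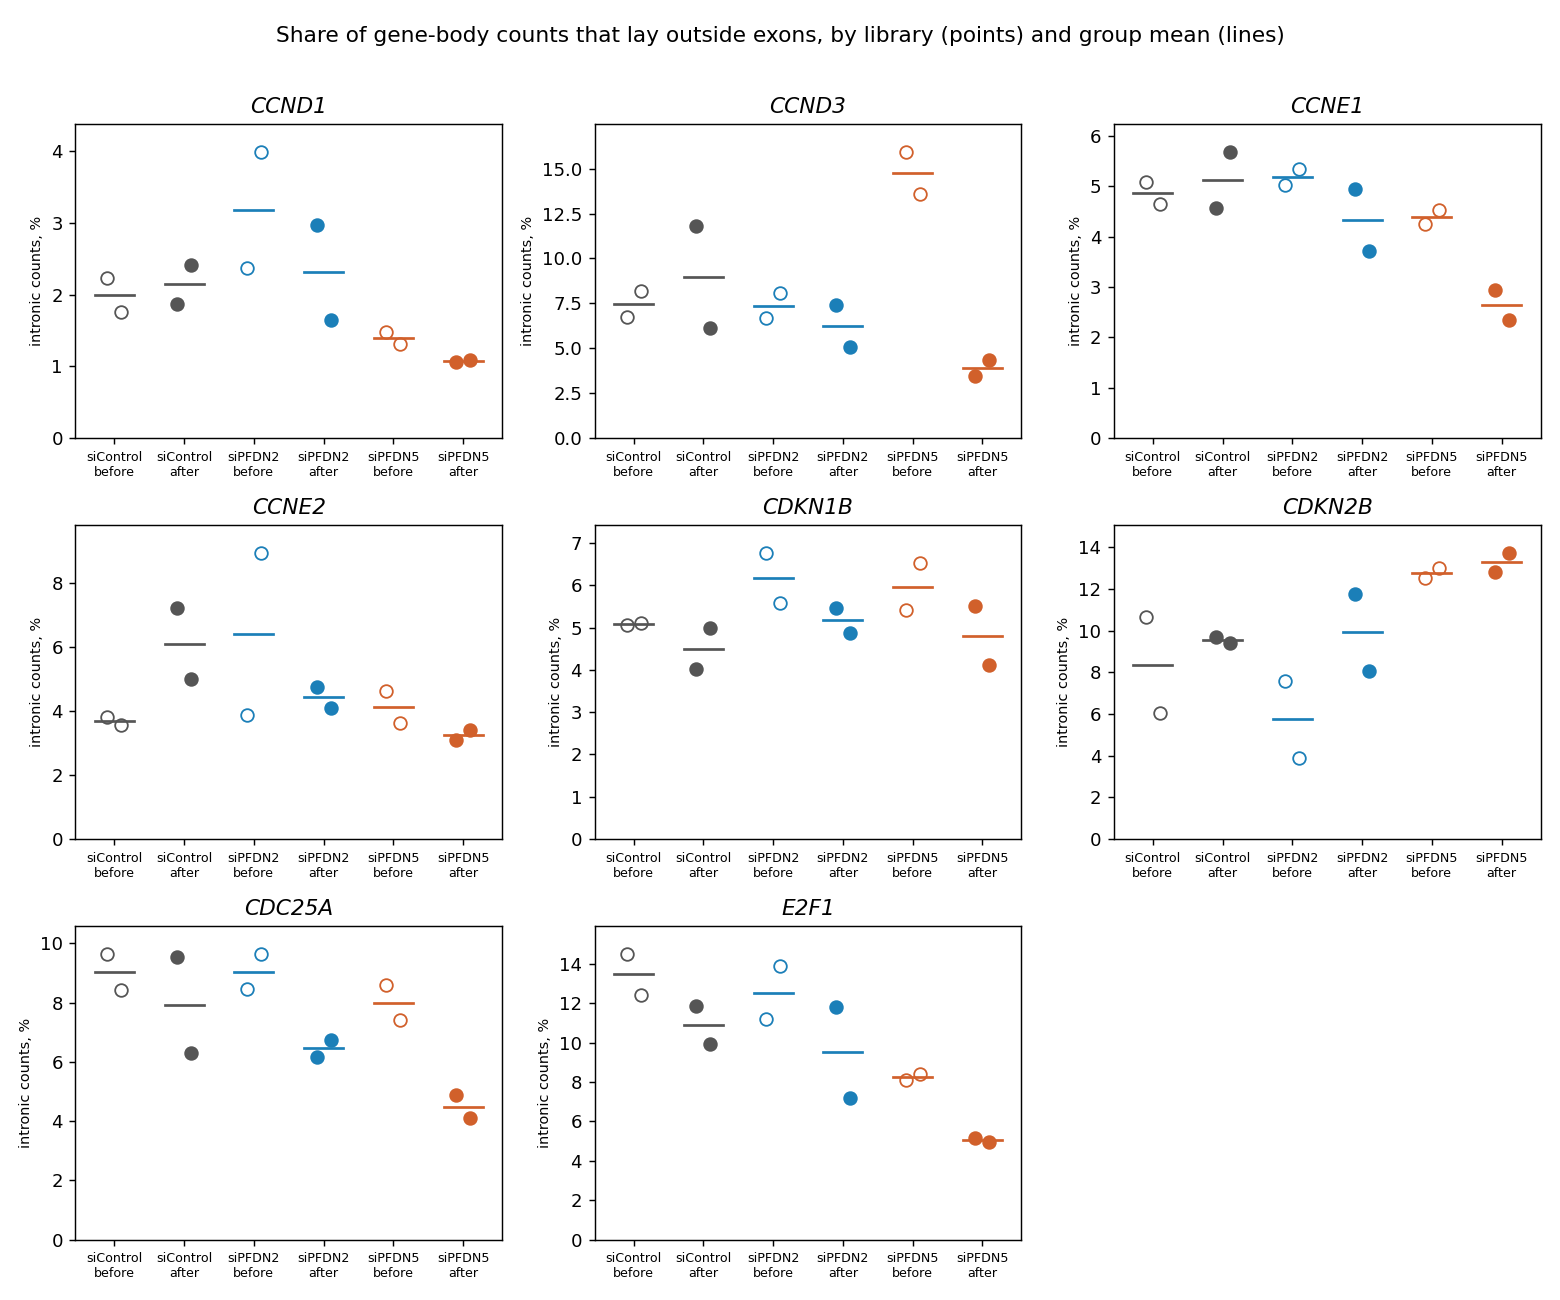
Share of each gene's gene-body counts that lay outside its exons, in percent, in each library (points; open before serum, filled after serum) with group means (lines), for the 8 genes tested. CCND3 stands at 15.9% and 13.6% in siPFDN5 before serum and at 3.45% and 4.36% in siPFDN5 after serum.

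Over the 12 libraries the strongest correlations between the 9 genes are given as Pearson correlations of log2 CPM, which share libraries and depth. They include siPFDN2 before serum replicate 2, the library that stood apart, and its part in them was not tested. CDC25A and E2F1 had r = 0.86, CDC25A and CCNE1 r = 0.75, and E2F1 and CCNE1 r = 0.64. CDKN1C had r = -0.69 with CDC25A and -0.67 with E2F1. CCND1 and CDKN2B had r = 0.80, CCNE2 and CDKN2B r = 0.77, and CDKN1B had r = -0.77 with CCND1 and -0.74 with CDKN2B. Among 12112 genes with a mean log2 CPM of at least 3, those most like E2F1 were TCF19 (0.98), ASF1B (0.97) and TFDP1 (0.97), and those most like CDC25A were RNASEH1 (0.99), ENSA (0.97) and CDCA4 (0.97). Those most like CDKN2B were TPM4 (0.98), DKK1 (0.98) and F2RL1 (0.98), and those most like CDKN1B were AC006504.7 (0.94), AC006504.5 (0.94) and CTDSPL (0.92). For CCND1 the nearest was its overlapping neighbour LTO1 (0.98), which shares reads with it.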

How the data were processed

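The authors deposited fragment counts per gene over gene bodies and over exons. Per the file headers these came from featureCounts 1.5.2 on Ensembl 87 annotation of GRCh38, which took fragments with both ends mapped, credited a fragment to every gene it touched and ignored strand. The submitters' processing notes also name HISAT2, kallisto 0.43 and GRCh38.p7. The deposited files per sample hold estimated counts per transcript. A further 6 columns of either count table match no sample label and were not used. Names and GC content came from GENCODE. Gene-body counts were fitted with edgeR 4.0.16 in R 4.3.3 (filterByExpr, TMM, 1 mean per group over 12 libraries, robust quasi-likelihood test, two-sided, Benjamini-Hochberg over 27915 genes), and called at an adjusted p under 0.05 in 12 comparisons. CPM is a count relative to the TMM-scaled total. Introns are gene-body minus exon counts, tested against exons with the library as a block. The scripts were tested on simulated data. DESeq2 1.42.0, other scalings and filters, exon counts, a GC correction, a replicate block and leaving out each library were alternatives. All 10 members were named, with folds for every serum response and for other comparisons at an unadjusted p under 0.05; list genes were named where called, and genes of like pattern by correlation. Members and lists were chosen with earlier results of these data known.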

Additional observations from a re-analysis of the deposited data

How the results depend on the processing

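CDKN1B kept its averaged call in 21 of 21 alternatives, at -0.68 to -0.48, and the averaged calls of CDKN2B and CDC25A held in 18 and 12 of 21. Under siPFDN5 the calls of CDKN1B and CDC25A each held in 18 of 22. The cause of each loss below was not tested. With library size only, which moved the median averaged serum difference of all genes from -0.03 to -0.17, the siPFDN2 serum differences reversed for CCND1 (-0.051), CCNE1 (-0.083) and CDC25A (-0.047) and the averaged one for CCNE1 (-0.058). With the GC trend removed those of siPFDN2 reversed for CDKN1C (0.30) and E2F1 (0.40) and the average for CCND3 (0.079), and with the replicate block as well they were 0.31, 0.41 and 0.079. None of these passed.

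Counts of calls among the 9 genes moved as follows, with the share of all genes called by the same fit in parentheses. The siControl serum response gave 1 with DESeq2 (4.31%), with the GC trend removed (6.34%), and with the replicate block and the GC trend removed (5.4%). That of siPFDN2 gave 1 with DESeq2 (11.2%) and 1 with no filter (10.9%). That of siPFDN5 gave 4 with DESeq2 (16.4%), 4 with no filter (11%), 6 with the GC trend removed (29.3%), 6 with the block as well (26.5%) and 9 with only the libraries compared (54.5%). The average gave 4 with DESeq2 (18.1%), 4 with no filter (13.9%), 5 with the GC trend removed (28.4%), 5 with the block as well (26%), and 2, CDKN1B and CDKN1C, with library size only (20.5%). Against siControl before serum siPFDN5 gave 4 with only the libraries compared (19.5%). Against siPFDN2 before serum it gave 3 with DESeq2 (13.9%), 2 with no filter (11.5%), 2 with the GC trend removed (6.36%) and 2 with the block as well (4.24%). Against siPFDN2 after serum it gave 1 with DESeq2 (0.416%), 1 with the GC trend removed (0.552%) and 3 with only the libraries compared (22.7%). The siPFDN5 interaction gave 1 with DESeq2 (6.32%), 1 with the GC trend removed (8.69%) and 2 with only the libraries compared (14.9%). An average could not be had from only the libraries compared.

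Leaving out 1 library gave 0 to 1 calls in the siControl serum response, 0 to 3 in that of siPFDN2, 0 to 7 in that of siPFDN5 and 1 to 6 on average. Against siControl it gave 0 to 3 for siPFDN2 and 0 to 3 for siPFDN5 before serum, and 0 to 0 and 0 to 1 after serum. It gave 0 to 6 and 0 to 2 for siPFDN5 against siPFDN2 before and after serum, 0 to 4 and 0 to 5 for the interactions of siPFDN2 and siPFDN5, and 0 to 2 for introns against exons. Without siPFDN2 before serum replicate 1 the 6 calls against siPFDN2 stood beside 47.9% of all genes, the 3 of siPFDN2 with serum beside 48.6% and the 3 of siPFDN2 before serum beside 41.8%. A lone library left in a group was assumed to vary like the other groups. Some differences that did not pass with all libraries changed sign when 1 was left out. Their ranges were, for siControl serum, -0.12 to 0.23 (CCND1), -0.20 to 0.049 (CCND3), -0.067 to 0.31 (CCNE2), -0.044 to 0.19 (CDC25A) and -0.064 to 0.24 (E2F1), and for siPFDN2 serum -0.035 to 0.30 (CCNE1) and -0.27 to 0.11 (E2F1). They were -0.10 to 0.071 for the average of CCND3, and for introns against exons -0.10 to 0.21 (CCND1), -0.17 to 0.12 (CCNE1) and -0.11 to 0.18 (CDKN1B).

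Replicate numbers did not pair the libraries: correlations of same-numbered deviations ran from -0.32 to 0.59. With the replicate block alone 3 members were called on average, 2 under siPFDN5 and 0 in each other comparison, as without it. With 2 libraries a group and CCND2 at 0 to 5 counts, small differences were not detectable.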
